A study of Mus musculus with 8 samples.

Results

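Circadian clock genes were followed here in sorted GFP+ cells of *Tie2e-cre* reporter mice: *Arntl* (BMAL1), *Clock*, *Npas2*, *Per1*, *Per2*, *Per3*, *Cry1*, *Dbp*, *Nr1d1* and *Nr1d2*. These 10 genes were taken by name from the 54532 genes of the deposited count table, and each name occurs there only 1 time. RNAseq had been run on GFP+ (mG+) cells sorted by FACS from female mice aged 8 months. All mice carried *Tie2e-cre*, described for this line as an endothelial driver, and the *mTmG* reporter, in which cells that have expressed Cre, and their progeny, turn from membrane Tomato to membrane GFP. WT mice were Tie2e-cre; TERT+/+; mTmG and KO mice were Tie2e-cre; TERTfl/fl; mTmG. Cells came from subcutaneous adipose tissue (SAT) of mice that had eaten high-fat diet (HFD) since the age of 1 month, and from SAT, visceral adipose tissue (VAT) and gastrocnemius muscle of mice on chow. Each tissue and diet gave 1 WT and 1 KO library, which makes 8 libraries in 4 pairs with no replicate inside a pair. The mice lived on a light/dark cycle, but the clock time of tissue collection, the number of mice behind a library and any sharing of mice between the chow tissues are not given in the sources used here.

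The mammalian clock is a feedback loop of transcription. ARNTL pairs with CLOCK or with its paralog NPAS2, and the pair activates genes with E-box elements, among them the *Per* and *Cry* genes, *Dbp*, *Nr1d1* and *Nr1d2*. PER and CRY proteins then repress that activator, while the nuclear receptors REV-ERBα (*Nr1d1*) and REV-ERBβ (*Nr1d2*) repress *Arntl*, *Clock*, *Npas2* and *Cry1* through ROR response elements (RRE). In peripheral tissues, endothelium included, *Arntl* RNA therefore peaks at the opposite part of the day from *Nr1d1* and *Dbp*, so the ratio between them within a sample moves strongly with the hour. *Per1* is also induced quickly by CREB signalling and by glucocorticoids.

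The E-box, the E′-box, the D-box bound by DBP, the RRE and the cAMP response element (CRE) are the sites through which these genes act on each other, so the promoters that hold such letters are shown. In RefSeq promoters (GRCm38.p6) the 250 bases upstream of the annotated start were searched on both strands. The letters were CACGTG (E-box), CACGTT (E′-box), TTATGTAA (D-box), TGACGTCA (CRE) and TNGGTCA, with N any base, a loose form of the RRE core. No match in the windows of the clock genes overlapped another. Of 32851 such windows of all genes, 6.02% held the E-box letters, 3.85% the E′-box, 0.819% the D-box, 9.19% TNGGTCA and 1.55% the CRE. Windows existed for 9 of the 10 genes, *Per2* being the gene with no entry, and there were 13 windows because some genes have several starts. Matches are in capitals. *Arntl* (chr7:113207215-113207464, plus strand) held the TNGGTCA letters 2 times, as TTGGTCA and TCGGTCA. *Cry1* (chr10:85185055-85185304, minus strand) held an E′-box and an E-box, and *Per1* (chr11:69098699-69098948, plus strand) an E-box. *Per3* (chr4:151044666-151044915, minus strand) held the D-box letters 2 times and a match to TNGGTCA on the other strand (TGACCAA). *Nr1d1* (chr11:98775378-98775627, minus strand) held an E′-box.
Arntl: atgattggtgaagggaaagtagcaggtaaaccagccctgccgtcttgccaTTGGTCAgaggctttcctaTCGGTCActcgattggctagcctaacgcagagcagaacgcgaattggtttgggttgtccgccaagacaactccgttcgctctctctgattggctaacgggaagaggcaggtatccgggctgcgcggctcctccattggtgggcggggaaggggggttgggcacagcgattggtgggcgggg
Cry1: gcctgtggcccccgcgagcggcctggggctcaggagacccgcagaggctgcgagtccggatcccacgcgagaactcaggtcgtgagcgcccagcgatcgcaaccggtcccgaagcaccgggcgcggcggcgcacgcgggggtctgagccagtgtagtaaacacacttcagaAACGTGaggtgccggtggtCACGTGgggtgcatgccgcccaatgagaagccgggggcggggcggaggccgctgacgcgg
Per1: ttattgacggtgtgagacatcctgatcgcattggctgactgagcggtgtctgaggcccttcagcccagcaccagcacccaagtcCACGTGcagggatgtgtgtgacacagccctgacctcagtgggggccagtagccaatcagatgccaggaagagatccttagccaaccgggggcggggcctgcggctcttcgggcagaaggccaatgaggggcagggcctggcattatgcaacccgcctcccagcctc
Per3: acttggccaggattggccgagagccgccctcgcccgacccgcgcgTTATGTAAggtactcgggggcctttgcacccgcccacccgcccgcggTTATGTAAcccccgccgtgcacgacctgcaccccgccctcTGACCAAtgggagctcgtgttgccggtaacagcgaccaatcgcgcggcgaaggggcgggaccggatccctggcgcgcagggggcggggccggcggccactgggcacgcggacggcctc
Nr1d1: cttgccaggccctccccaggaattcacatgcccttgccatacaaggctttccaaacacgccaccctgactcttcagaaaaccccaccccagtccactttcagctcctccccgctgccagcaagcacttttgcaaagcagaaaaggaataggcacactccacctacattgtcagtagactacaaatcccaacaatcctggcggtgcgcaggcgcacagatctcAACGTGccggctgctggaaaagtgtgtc
The windows of *Clock*, *Npas2*, *Dbp* and *Nr1d2* held none of these letters, which says nothing about sites elsewhere in those genes. A match describes the sequence only, and matches to TNGGTCA were not checked against the full RRE. In each of the marked matches to TNGGTCA, N was T or C, and none was shown to be an RRE.

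Library totals ran from 6214269 counts (SAT HFD WT) to 18855772 (SAT chow WT), and levels are given as CPM, counts per 1000000 after TMM scaling. The SAT chow WT library stood apart: the nuclear RNA *Malat1* was at 299 CPM there against 2180 to 6010 CPM in the other 7 libraries, and the 10 clock genes summed to 259 CPM against 615 to 1210 CPM. In SAT HFD WT, 9.72% of all counts fell on *Gm26917*, against 0.195% to 1.07% elsewhere. *Tert* fell with the label in SAT HFD (114 counts in WT and 0 in KO), SAT chow (70 and 11) and muscle (24 and 7). In VAT it had 3 counts (WT) and 9 counts (labelled KO), so for VAT the *Tert* counts give no check of the genotype label, and every VAT direction below rests on the label alone. All 10 endothelial markers had more than 3 counts in every library and summed to 314 to 2230 CPM, but markers of blood and stromal cells were also present. Macrophage markers summed to 9020 and 9140 CPM in VAT, neutrophil markers to 26100 and 30100 CPM in muscle, and B cell markers to 875 to 6220 CPM across the 8 libraries. Endothelial markers summed to less than these macrophage and neutrophil values, at 2060 CPM (WT) and 1540 CPM (labelled KO) in VAT and 1880 and 2230 CPM in muscle. In SAT chow WT they summed to 539 CPM, where B cell markers summed to 6220 CPM. The clock gene levels are therefore those of all sorted cells, not of endothelium alone. In such bulk libraries, fewer cells of a type and less RNA per cell cannot be told apart.

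**Figure D1:**
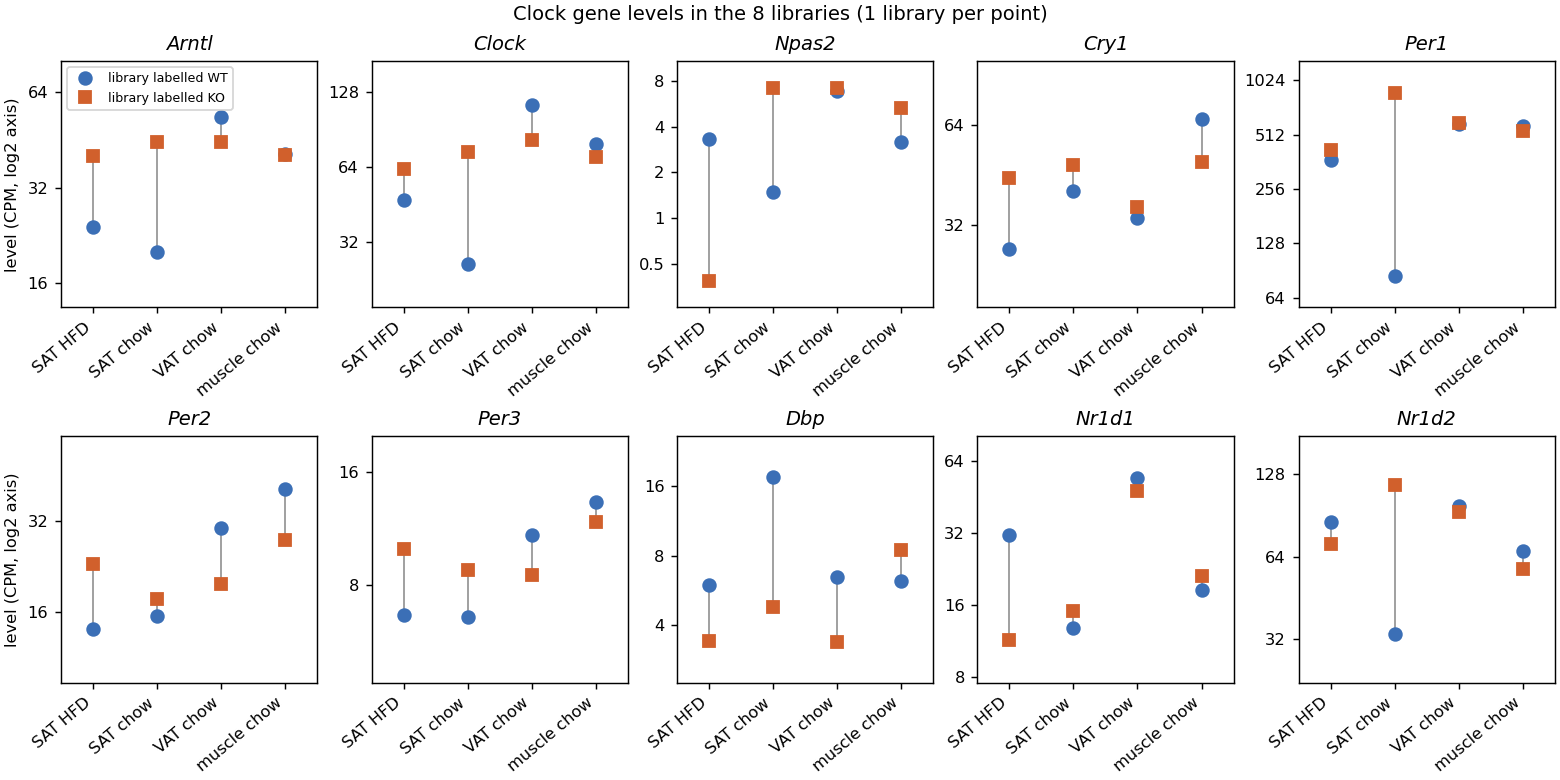
Level of each clock gene (CPM, log2 axis) in the 8 libraries, 1 library per point, with a line joining the WT (circle) and KO (square) libraries of a tissue and diet. The points of a pair lie at most 1.9-fold apart in VAT and muscle (*Dbp* in VAT), while in SAT chow *Per1* stands at 84.7 CPM in WT and 874 CPM in KO.

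All 10 genes were above 3 counts in all 8 libraries and were kept by the filter on low counts (10 or more on average over the libraries). Per length, in CPM per kb, *Per1* was the most abundant of them in every library, at a median of 98.3 CPM per kb (15.0 to 155.0). *Nr1d2* (median 14.5 CPM per kb) and *Cry1* (12.7) came next, in places 2 to 4. *Nr1d1* (6.44), *Arntl* (5.40), *Clock* (5.24), *Per2* (3.66) and *Dbp* (2.03) shared the middle of the order and changed places between libraries. *Per3* (0.974) and *Npas2* (0.901) were the lowest, in places 8 to 10.

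Of the activators, *Arntl* was at 24.0 CPM in WT and 40.3 CPM in KO in SAT HFD, 20.1 and 44.7 CPM in SAT chow, 53.4 and 44.6 CPM in VAT, and 40.8 and 40.5 CPM in muscle. Both SAT WT libraries were lower than the other 6, which lay within 40.3 to 53.4 CPM. *Clock*, the partner of ARNTL, followed nearly the same order, at 47.1 and 62.8 CPM in SAT HFD, 26.1 and 73.7 CPM in SAT chow, 114 and 81.8 CPM in VAT, and 79.5 and 70.1 CPM in muscle. By the mean of the 2 libraries, both genes were highest in VAT, then in muscle, and the VAT libraries did not overlap those of muscle. *Npas2*, a CLOCK paralog used in forebrain and vasculature, was scarce: 23 and 5 counts in SAT HFD, 24 and 116 in SAT chow, 62 and 99 in VAT, and 52 and 72 in muscle, WT before KO. Its level spanned 18.7-fold from the lowest library (SAT HFD KO, 0.386 CPM) to the highest (VAT KO, 7.23 CPM), and no neighbouring conditions were apart.

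Among the repressors, *Cry1* was highest in muscle (66.6 CPM in WT and 49.5 CPM in KO), apart from SAT chow (40.5 and 48.4 CPM). SAT HFD (27.0 and 44.3 CPM) overlapped both SAT chow and VAT (33.5 and 36.3 CPM), while VAT lay below SAT chow. *Per2* was at 14.0 and 23.1 CPM in SAT HFD, 15.5 and 17.6 CPM in SAT chow, 30.4 and 19.7 CPM in VAT, and 40.6 and 27.6 CPM in muscle, each condition overlapping the next. *Per3*, whose product is largely dispensable for rhythms, varied least, 2.03-fold from 6.56 CPM (SAT chow WT) to 13.3 CPM (muscle WT). *Per1* lay within 369 to 597 CPM in 6 libraries. Only the SAT chow pair left that range, with 84.7 CPM in WT and 874 CPM in KO, the lowest and the highest of the 8 libraries.

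The REV-ERB genes differed from each other. *Nr1d1* was highest in VAT, at 54.0 CPM and 47.7 CPM in the libraries labelled WT and KO. It stood at 31.5 and 11.4 CPM in SAT HFD, 18.5 and 21.1 CPM in muscle, and 12.8 and 15.1 CPM in SAT chow, WT before KO. The VAT libraries lay above the other 6, and muscle lay above SAT chow, while the SAT HFD pair reached across both. *Nr1d2* was at 85.7 and 71.2 CPM in SAT HFD, 33.4 and 117 CPM in SAT chow, 97.9 and 93.3 CPM in VAT, and 67.3 and 57.5 CPM in muscle, so that, as with *Per1*, the 2 SAT chow libraries were its lowest and its highest. *Dbp*, a PAR-bZIP factor that carries clock output to metabolic genes, was scarce, at 5.93 and 3.40 CPM in SAT HFD, 17.6 and 4.78 CPM in SAT chow, 6.44 and 3.36 CPM in VAT, and 6.20 and 8.48 CPM in muscle. The SAT chow WT library, lowest for *Arntl*, *Clock*, *Per1*, *Per3* and *Nr1d2*, was the highest for *Dbp*.

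Differences between tissues and diets were tested in 1 fit of all 8 libraries, with the WT and KO library as the 2 libraries of each condition, by the quasi-likelihood test of edgeR, and p-values were adjusted by Benjamini-Hochberg over 16971 genes. For any difference among the 4 conditions, none of the 10 clock genes passed an adjusted p of 0.05, while 7.93% of all genes tested did. 1 member, *Nr1d1*, had an unadjusted p under 0.05 (adjusted p = 0.130, edgeR), as did 3709 of all 16971 genes. DESeq2's likelihood ratio test, which called 19.7% of all genes, called *Nr1d1* (adjusted p = 0.0180). Its largest contrast was VAT over SAT on chow, 1.84 on the log2 scale (SE 0.491, adjusted p = 0.0779, edgeR), with both VAT libraries above both SAT chow libraries. For that contrast 5.0% of all genes were called by edgeR. DESeq2 called 13.6% of them, among them *Nr1d1*, at an adjusted p of 0.00525 and a log2 fold change of 2.01. In muscle over VAT *Nr1d1* was at −1.34 (SE 0.484, adjusted p = 0.267, edgeR), where 2.02% of all genes were called. For muscle over SAT on chow (1.27% of all genes called) the lowest p was that of *Per2*, at 1.04 on the log2 scale (SE 0.449, adjusted p = 0.434, edgeR). For HFD over chow in SAT no gene at all was called (0.00%) by edgeR, against 1577 at an unadjusted p under 0.05 and 260 by DESeq2, and no clock gene had an unadjusted p under 0.05 by either tool. Diet values ran from −1.13 for *Npas2* (SE 1.43) and −1.13 for *Dbp* (SE 0.786) to 0.54 for *Nr1d1* (SE 0.490), adjusted p 0.681 to 0.994 by edgeR.

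These tissue results turned on the SAT chow libraries. Without SAT chow KO, so that SAT chow was the WT library alone, assumed to vary like the other conditions, 4 clock genes were called in VAT over SAT chow: *Per1* (log2 2.78, adjusted p = 0.00315, edgeR), *Nr1d2* (1.61, 0.00960), *Clock* (1.94, 0.0146) and *Nr1d1* (2.23, 0.0458). Calls rose over the whole table too, from 5.0% to 20.9% of all genes for that contrast. For any difference among conditions, 3 clock genes (*Per1*, *Nr1d2* and *Clock*) were then called by edgeR beside 24.0% of all genes. Without SAT chow KO, *Per1* (2.69, adjusted p = 0.00749) and *Clock* (1.56, 0.0426) were also called in muscle over SAT chow, where 10.5% of all genes were, and *Per1* in SAT HFD over SAT chow (2.20, 0.0415), where 2.62% were. Without SAT chow WT no clock gene was called in any of the 5 tests between conditions. *Nr1d1* was also called in VAT over SAT chow without SAT HFD KO (1.87, adjusted p = 0.0374, 5.05% of all genes called) and without SAT HFD WT (2.06, 0.0273, 6.37% of all genes called, edgeR). The latter fit also called it for any difference among conditions (adjusted p = 0.0350, 7.94% of all genes called, edgeR). With every gene of at least 1 count in the fit, edgeR called *Nr1d1* for any difference (adjusted p = 0.00511) and in VAT over SAT chow (adjusted p = 0.00429), beside 11.1% and 7.09% of all 29627 genes.

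Across the 4 pairs, with tissue and diet as a block, no clock gene differed between KO and WT (edgeR, adjusted p = 0.9996 for each of the 10), no member had an unadjusted p under 0.05, and DESeq2 also called 0 of 10. Of all genes tested, 0.00589% were called, and 277 had an unadjusted p under 0.05 (edgeR). *Dbp* had the lowest p, at a log2 fold change of −0.80 (SE 0.568), lower in KO in 3 of 4 pairs. *Per1* was at 0.75 (SE 0.587), *Arntl* at 0.40 (SE 0.298) and *Nr1d1* at −0.29 (SE 0.346). Without the SAT chow pair, *Per1* was at 0.035, *Arntl* at 0.15 and *Dbp* at −0.43. *Arntl* was at 0.65 without the VAT pair, and *Dbp* at −1.21 without the muscle pair. The design has 4 pairs that differ in tissue and diet, so this fit asks only for a change that they share, and the pairs below did not behave alike.

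Within a pair the 2 libraries were compared by the log2 ratio of KO to WT (prior count 0.5) with an exact binomial 95% interval, which covers counting error only and describes those 2 libraries, not the genotypes. A gene is called changed beyond 2-fold where the whole interval lies beyond 2-fold.

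**Figure D2:**
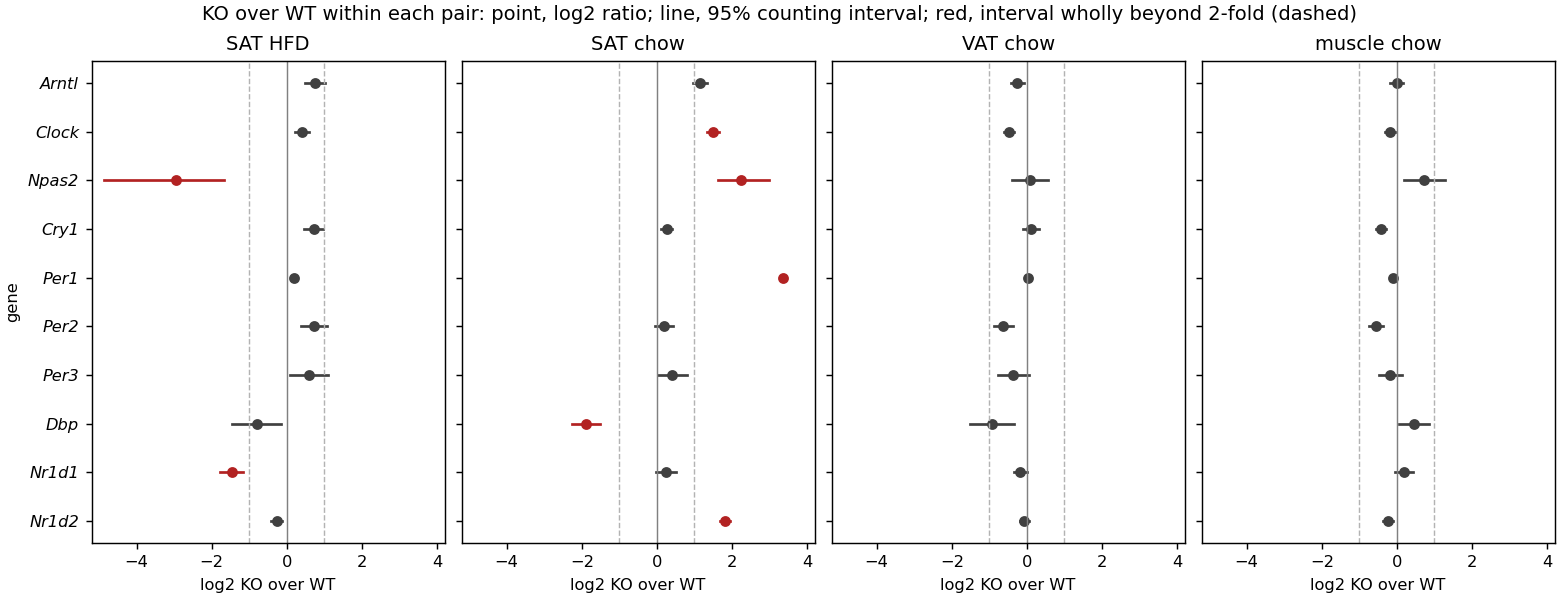
Log2 ratio of KO to WT (points) for the 10 clock genes in each pair, with 95% counting intervals as lines and intervals wholly beyond 2-fold (dashed lines) in red. 2 genes are red in SAT HFD, 5 in SAT chow and 0 in VAT and in muscle.

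In SAT on HFD, 2 of 10 clock genes were lower in KO beyond 2-fold, and 0 were higher. Of all 15839 genes tested in that pair, 10.9% were lower and 12.9% higher. *Nr1d1* went from 218 to 148 counts in the deeper KO library, a log2 ratio of −1.46 (−1.78 to −1.16), 2.75-fold lower. *Npas2* went from 23 to 5 counts, −2.95 (−4.86 to −1.68). The other targets of the activator split: *Dbp* was at −0.79 (−1.45 to −0.15) and *Nr1d2* at −0.27 (−0.42 to −0.12), whereas *Per2* was at 0.72 (0.38 to 1.07), *Per3* at 0.58 (0.09 to 1.10) and *Per1* at 0.19 (0.12 to 0.26). *Arntl*, at 0.75 (0.49 to 1.01), *Cry1*, at 0.71 (0.47 to 0.96), and *Clock*, at 0.41 (0.23 to 0.60), had intervals above 0 but not beyond 2-fold, as did *Per1*, *Per2* and *Per3*. Intervals lay above 0 for 6 of the 10, and for 6234 of the 15839 genes. The median of the 10 was 0.30, against 0.06 for all genes, and the median size of the ratio, sign left aside, was 0.71 against 0.59. In the same pair, intervals of 7 of 8 macrophage markers lay below 0 (308 CPM in WT and 188 CPM in KO, 1 of 8 beyond 2-fold), 3 of 6 muscle fibre markers were lower beyond 2-fold (49.6 and 11.5 CPM, with *Ckm* at 0 counts in KO), and the WT library was the one with 9.72% of counts on *Gm26917*. Their part in these values was not tested.

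In SAT on chow, 4 of 10 clock genes were higher in KO beyond 2-fold and 1 was lower, where 19.1% of all 16908 genes were higher and 11.5% lower. *Per1* rose from 1369 to 14099 counts, a log2 ratio of 3.37 (3.29 to 3.45) or 10.3-fold. *Npas2* rose from 24 to 116 counts, 2.25 (1.63 to 2.98), *Nr1d2* from 539 to 1889, 1.81 (1.67 to 1.95), and *Clock* from 422 to 1188, 1.495 (1.34 to 1.66). *Dbp* fell from 285 to 77 counts, −1.88 (−2.27 to −1.52), 3.68-fold lower. *Arntl* was at 1.15 (0.96 to 1.34), *Per3* at 0.41 (0.04 to 0.79) and *Cry1* at 0.26 (0.11 to 0.41), and the intervals of *Nr1d1* (0.24, −0.03 to 0.51) and *Per2* (0.19, −0.06 to 0.44) spanned 0. *Nr1d2* and *Dbp*, both targets of the activator, thus moved in opposite directions in this pair.

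Several other features moved in the same pair. *Malat1* was 20.1-fold higher in SAT chow KO. Log2 ratios rose with gene length across genes (Spearman's rho 0.237, against −0.146 to 0.047 in the other pairs), the median being 0.98 for the 1328 genes of at least 10000 bases, and with that trend removed *Clock* (13727 bases) fell to 0.29 and was no longer beyond 2-fold, *Per3* turned to −0.13, and *Per1* stayed at 3.18. Of 12 immediate early genes, whose rapid induction *Per1* shares, 5 were higher beyond 2-fold and 0 lower, beside 19.1% and 11.5% of all genes. The 5 included *Fosb* (log2 2.97) and *Nr4a1* (2.67). However, *Fos* was at 0.01, *Jun* at 0.11, *Ier2* at 0.10, *Zfp36* at 0.18 and *Dusp1* at −0.25. The list summed to 6540 CPM in WT and 11900 CPM in KO. Of 9 glucocorticoid targets, 4 were higher and 0 lower, among them *Zbtb16* (3.65) and *Klf9* (2.30), but *Tsc22d3* was at 587 and 621 CPM and *Fkbp5* at 61.6 and 54.7 CPM. Stromal markers were higher in 8 of 8 (733 CPM in WT and 3330 CPM in KO) and mural markers in 5 of 6 (55.7 and 214 CPM, with *Cspg4* at 0 counts in WT), while 5 of 8 T cell markers (3510 and 1440 CPM), 6 of 7 neutrophil markers (281 and 76.1 CPM) and 4 of 8 macrophage markers (867 and 442 CPM) were lower. The part of these features in the clock gene values was not tested.

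In VAT none of the 10 clock genes was beyond 2-fold in either direction, where 2.40% of all 16439 genes were higher and 2.09% lower in the library labelled KO. Intervals lay below 0 for 5 genes, above 0 for none, and spanned 0 for 5. *Dbp* had the largest ratio, from 58 to 46 counts, −0.93 (−1.53 to −0.36), followed by *Per2* at −0.62 (−0.87 to −0.38) and *Clock* at −0.48 (−0.60 to −0.35). *Per1* was at 0.03 (−0.02 to 0.08) on 5264 and 8167 counts. The median size of the 10 ratios was 0.22, against 0.31 for all genes. Markers of some other cells moved further in this pair. Mural markers were higher beyond 2-fold in 5 of 6 (163 CPM in WT and 675 CPM in the library labelled KO) and stromal markers in 3 of 8 (964 and 2170 CPM). Muscle fibre markers were lower in 5 of 6 (142 and 10.4 CPM). Macrophage markers had 0 of 8 beyond 2-fold and a median size of 0.17, and endothelial markers had intervals below 0 in 7 of 10. Their part in the clock gene values was not tested.

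In muscle none of the 10 was beyond 2-fold either, where 2.76% of all 16967 genes were higher and 2.01% lower. *Npas2* had the largest ratio, from 52 to 72 counts, 0.73 (0.20 to 1.28). *Per2* was at −0.56 (−0.74 to −0.37), *Cry1* at −0.43 (−0.57 to −0.29) and *Dbp* at 0.45 (0.05 to 0.85), and *Arntl* at −0.01 (−0.17 to 0.16) and *Nr1d1* at 0.19 (−0.05 to 0.42) spanned 0. *Per1*, at −0.10 (−0.15 to −0.06), turned to 0.06 when library totals replaced TMM. The median size of the 10 ratios was 0.21, against 0.33 for all genes. Macrophage markers were lower in muscle KO (698 and 325 CPM, 4 of 8 beyond 2-fold) and stromal markers higher (583 and 1260 CPM, 3 of 8), as were mural markers (168 and 360 CPM, 4 of 6), and their part in these values was not tested.

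Whether paired libraries looked alike in phase was read from ratios of opposing transcripts inside each library, which do not depend on library scaling. The ratio *Arntl* over *Nr1d1*, as log2 of counts, in VAT was −0.02 (WT) and −0.10 (labelled KO), a difference of −0.08 (95% counting interval −0.32 to 0.16). In muscle it was 1.14 and 0.94, a difference of −0.19 (−0.48 to 0.09). The libraries of each of these pairs differed by less than counting error, while the pairs themselves were about 1 log2 unit apart. In SAT chow the ratio was 0.65 in WT and 1.56 in KO, a difference of 0.91 (0.58 to 1.24). In SAT HFD it was −0.39 in WT, the lowest of the 8 libraries, and 1.82 in KO, the highest, a difference of 2.21 (1.82 to 2.60) or 4.62-fold.

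**Figure D3:**
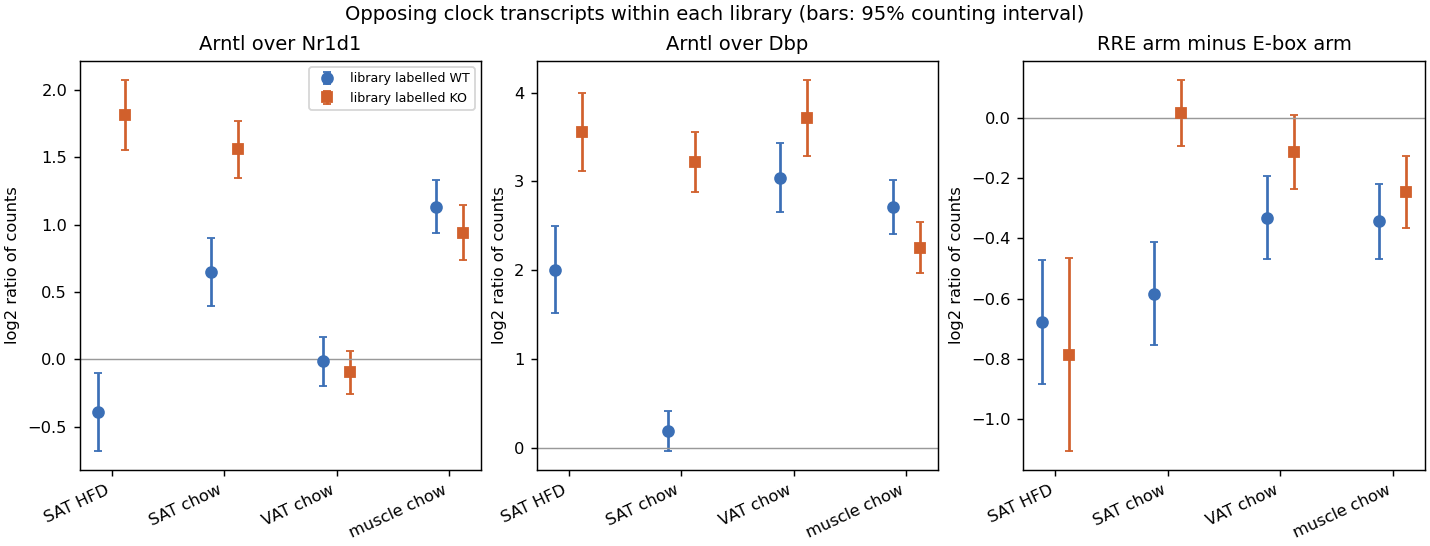
Log2 ratio of counts of *Arntl* to *Nr1d1*, of *Arntl* to *Dbp*, and of the RRE arm to the E-box arm (means of log2 counts), in each WT (circle) and KO (square) library, with 95% counting intervals. For *Arntl* over *Nr1d1*, the libraries of the SAT HFD pair are the lowest (−0.39) and the highest (1.82) of the 8, and those of VAT and of muscle overlap.

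The ratio *Arntl* over *Dbp* gave a partly different order. It was 0.19 in SAT chow WT, far below the other 7 libraries (2.004 to 3.72), and 3.22 in SAT chow KO, a difference of 3.03 (2.62 to 3.44) or 8.15-fold. It differed by 1.55 (0.89 to 2.21) in SAT HFD, by 0.68 (0.09 to 1.26) in VAT and by −0.46 (−0.88 to −0.04) in muscle. Both SAT pairs thus had more *Arntl* per *Nr1d1* and per *Dbp* in KO than in WT, by both ratios beyond counting error. The length trend of SAT chow enters these ratios, however. With it removed, log2 KO to WT in that pair was 0.83 for *Arntl* and 0.58 for *Nr1d1*, closer together than 1.15 and 0.24 before. For *Dbp* it was −1.54, against −1.88 before. For comparison, WT libraries of different tissues or diets differed from each other by 0.38 to 1.53 in *Arntl* over *Nr1d1* (6 differences, median 0.85) and by 0.33 to 2.85 in *Arntl* over *Dbp* (median 1.43). The SAT HFD pair exceeded the first range and the SAT chow pair the second. Among KO libraries the differences were 0.26 to 1.91 and 0.16 to 1.46. The largest WT differences were those of SAT HFD WT from muscle WT and of SAT chow WT from VAT WT. These ranges thus hold the libraries of the pairs set against them and give no independent reference.

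*Nr1d1* over *Dbp*, 2 genes of the same arm, also differed. It was −0.46 in SAT chow WT and 1.66 in SAT chow KO, a difference of 2.12 (1.67 to 2.57), and 0.76 (0.18 to 1.34) in VAT, and the intervals spanned 0 in SAT HFD (−0.66, −1.34 to 0.02) and muscle (−0.26, −0.71 to 0.19). In SAT chow these 2 targets of the activator did not keep their ratio between the libraries. A mean over whole arms, *Arntl*, *Clock*, *Npas2* and *Cry1* (RRE arm) less the 6 other genes (E-box arm), gave KO less WT differences of −0.11 (−0.49 to 0.27) for SAT HFD, 0.60 (0.40 to 0.80) for SAT chow, 0.22 (0.03 to 0.40) for VAT and 0.10 (−0.07 to 0.27) for muscle. In SAT HFD this mean did not show the shift of *Arntl* against *Nr1d1*, and *Npas2* went against the rest of its arm. Without *Clock* and *Cry1* it was −0.95, and from summed CPM of the arms 0.47. In SAT chow the sums of the arms, in which *Per1* is the largest term, gave −1.63, and without *Per1* the mean gave 1.13. In VAT the sums gave −0.26, also a turned direction. Phase, amplitude, the mix of cells and the handling of tissue cannot be told apart with 1 library a group and no collection times.

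Of 19 other clock genes, chosen for their place in the loop or its output, 0 passed an adjusted p of 0.05 in any of the 6 edgeR fits (18 tested). The lowest adjusted p was that of *Csnk1e*, a kinase of PER proteins, for any difference among conditions (0.0679, edgeR). It was at 0.92 in muscle over SAT chow (SE 0.344, adjusted p = 0.332), where *Wee1*, a cell cycle kinase and clock target, was at 1.57 (SE 0.544, adjusted p = 0.286, edgeR). *Nfil3* (E4BP4), which binds the D-box against DBP, had an unadjusted p under 0.05 in VAT over SAT chow (log2 2.06, SE 0.690, adjusted p = 0.142, edgeR) and in muscle over SAT chow (1.86, SE 0.706, adjusted p = 0.344). Its levels were 71.9 and 43.3 CPM in SAT HFD, 15.9 and 79.3 CPM in SAT chow, 166 and 211 CPM in VAT, and 196 and 123 CPM in muscle. *Bhlhe40* (DEC1), an E-box repressor, was at 1.31 in VAT over SAT chow (SE 0.514, adjusted p = 0.200) and −1.36 in muscle over VAT (SE 0.512, adjusted p = 0.294, edgeR). The other 2 genes with an unadjusted p under 0.05 were *Ciart* (CHRONO), a repressor of the activator, at −1.58 (adjusted p = 0.310), and *Timeless*, at 0.91 (adjusted p = 0.375, edgeR), both in muscle over VAT. By edgeR, 2 of 18 had an unadjusted p under 0.05 for any difference, beside 3709 of all 16971 genes. In VAT over SAT chow it was 2, beside 3517 of all genes. In muscle it was 3 over SAT chow, beside 1957, and 3 over VAT, beside 2171.

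**Figure D4:**
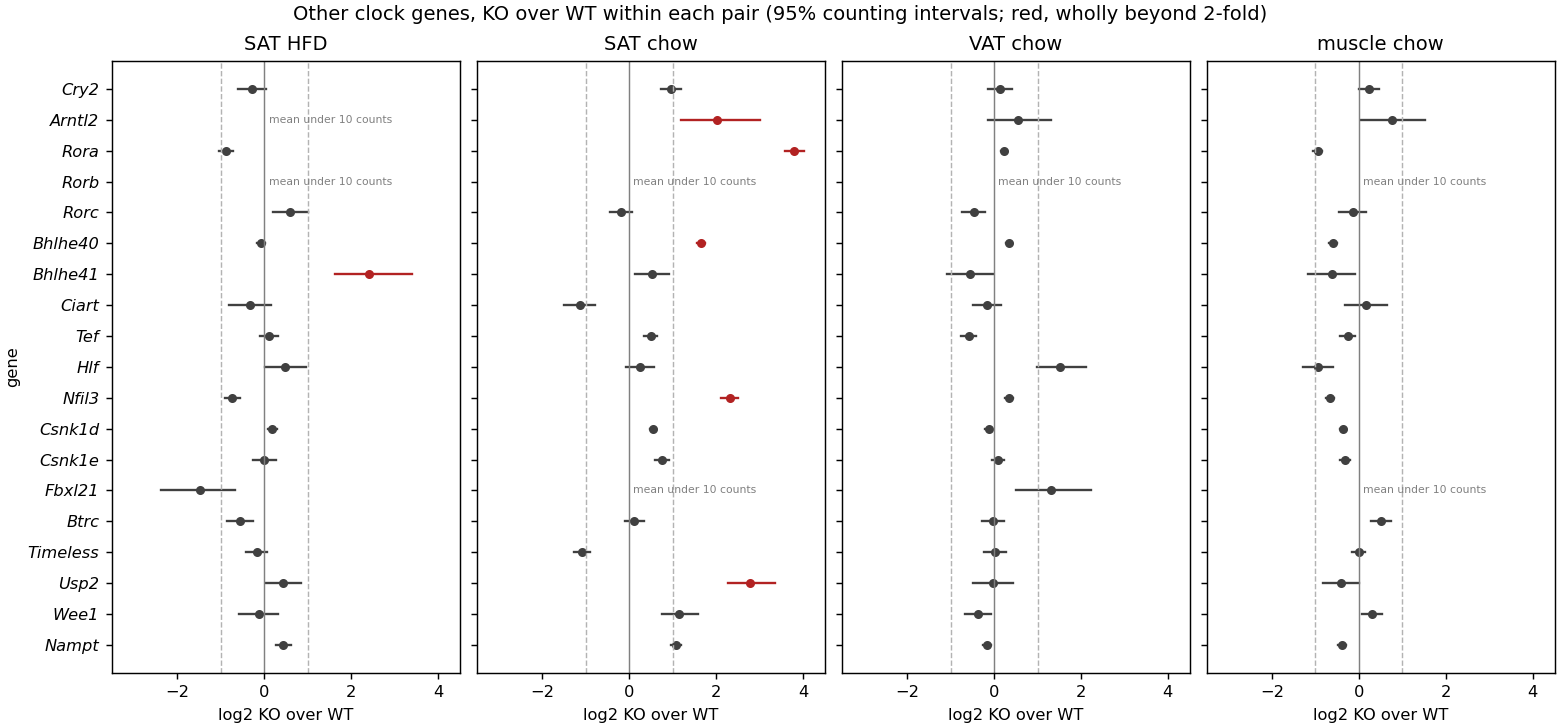
Log2 ratio of KO to WT (points) with 95% counting intervals (lines) for the 19 other clock genes in each pair, with intervals wholly beyond 2-fold in red and no point where the pair averaged under 10 counts. Red points are 1 in SAT HFD (*Bhlhe41*), 5 in SAT chow, all to the right of 0, and 0 in VAT and muscle.

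Within pairs, 5 of 17 such genes were higher in KO beyond 2-fold in SAT on chow and 0 lower, where 19.1% of all genes were higher and 11.5% lower. *Rora*, the activator that competes with REV-ERB at the RRE, rose from 191 to 2657 counts, a log2 ratio of 3.80 (3.59 to 4.02), or 2.93 with the length trend removed. *Usp2*, a deubiquitinase of clock proteins, was at 2.78 (2.28 to 3.35), *Nfil3* at 2.32 (2.12 to 2.52), *Arntl2*, a paralog of *Arntl*, at 2.02 (1.19 to 3.01) on 14 and 58 counts, and *Bhlhe40* at 1.65 (1.57 to 1.74). The median of the 17 was 0.76, beside 0.78 for the 10 and 0.00 for all genes. In SAT on HFD 1 of 17 was beyond 2-fold, where 12.9% of all genes were higher and 10.9% lower. It was *Bhlhe41* (DEC2), from 13 to 133 counts, 2.42 (1.63 to 3.40). *Rora* was at −0.88 and *Nfil3* at −0.73 in that pair, while *Bhlhe40* was at −0.07, its interval spanning 0. *Arntl2*, at 6 and 0 counts there, averaged under 10 counts and is left out of that number, though its interval, from −1.14 down, lay beyond 2-fold lower. None was beyond 2-fold in VAT (18 genes) or in muscle (17 genes). Of all genes, 2.40% were higher and 2.09% lower in VAT, and 2.76% and 2.01% in muscle.

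Likeness of pattern was described by Pearson's r of log2 CPM over the 8 libraries among genes averaging 50 counts or more. The libraries share pairs, depth and the SAT chow WT library, which lay at an extreme for both genes, so r is given with no test. Of 12367 other genes, those most like *Arntl* were *Yes1* (r = 0.991), *Ccnyl1* (0.980), *Tacc1* (0.980), *Atxn7l1* (0.978) and *Daam1* (0.976), and those most opposite were *3110040N11Rik* (−0.989), *Pmpcb* (−0.988), *Aurkaip1* (−0.983), *Gm15500* (−0.973) and *Gm11808* (−0.970). *Clock* was in place 19 (0.955). For *Dbp* the most like were *Wdr53* (0.976), *Faf1* (0.964), *Alkbh3* (0.952), *Tmem208* (0.946) and *Dpp3* (0.945), and the most opposite *Camta1* (−0.970), *Gm31812* (−0.940), *Rbm15* (−0.937), *Gm16364* (−0.931) and *Dnal1* (−0.930). No clock gene was among these 20 names. *Arntl* against *Dbp* gave −0.636, but −0.108 without SAT chow WT. *Dbp* against *Nr1d2* went from −0.792 to −0.385 and *Dbp* against *Per1* from −0.762 to −0.017, while *Arntl* against *Clock* stayed at 0.913.

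Positions of the 10 genes in the table match GENCODE M21 on GRCm38. *Dbp* (ENSMUSG00000059824, chromosome 7, positions 45705088 to 45710203, plus strand) shares 539 exonic bases, 18.0% of its own, with *Sphk2* on the opposite strand, at 23.7 to 46.7 CPM. *Nr1d1* (ENSMUSG00000020889, chromosome 11, positions 98767932 to 98775333, minus strand) shares 263, or 8.55%, with *Thra* on the opposite strand, at 13.0 to 48.2 CPM. Whether reads were counted by strand is not given in the sources used here, so both values are uncertain to that extent. *Sphk2* was at 46.7 CPM in SAT chow WT and 23.7 CPM in SAT chow KO, a difference in the same direction as *Dbp*. It was also lower in KO in SAT HFD (38.9 and 31.1 CPM) and VAT (35.4 and 26.0 CPM), as *Dbp* was. In muscle *Sphk2* was lower in KO (34.2 and 27.9 CPM) and *Dbp* higher.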

How the data were processed

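The deposited values are counts of reads per Ensembl gene (GRCm38/mm10), made by the authors with no normalization, and the table's gene length, also made by the authors, is in bases. The submitters' processing notes name HISAT2 2.0.5. The counting program and its use of strand are not given in the sources used here. RNA isolation is a column kit in the labels and Trizol in the paper's methods. All 8 value columns were matched to samples by diet, tissue and genotype.

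Clock genes and lists were chosen with earlier results of these data known, and 1 gene of the list of other clock genes is not reported here. Genes averaging 10 counts or more were fitted with edgeR 4.0.16 (TMM, robust quasi-likelihood, adjusted p under 0.05), by condition with genotype as a term and by genotype with condition as a block. Within pairs, CPM ratios used a prior count of 0.5 and exact (Clopper-Pearson) intervals. Arm ratios had 0.5 added to counts and delta-method intervals. Intervals and the floor of 3 counts cover counting error only. Procedures were tested on simulated data. Because nothing says how many mice gave each library, p-values measure the spread between libraries.

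Alternatives were DESeq2 1.42.0 (size factors and tests), library totals, mean counts of at least 50 or any count, a prior count of 5, leaving out each library or pair, no block or genotype term, and other arm measures. Removal of the length trend (100 bins) was chosen after seeing the data. Named genes were the 10 clock genes, other clock genes past a threshold, *Tert*, and the 5 genes most like and most opposite to *Arntl* and *Dbp*. Genes of other lists, and *Malat1*, *Csnk1e*, *Wee1*, *Ciart*, *Timeless*, *Gm26917*, *Sphk2* and *Thra*, were chosen after their values were seen. Python 3.11.15, scipy 1.17.1 and R 4.3.3 were used.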

Additional observations from a re-analysis of the deposited data

Results flagged for a closer look

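*Npas2* moved beyond 2-fold in opposite directions in the SAT pairs: its log2 ratio of KO to WT was −2.95 on HFD (23 and 5 counts) and 2.25 on chow (24 and 116 counts). The WT libraries held 3.33 CPM on HFD and 1.49 CPM on chow, and the KO libraries 0.386 and 7.19 CPM. With 1 library per genotype and diet, the difference between the diets was not tested. Among the 10 clock genes and the 19 other clock genes, no other that averaged 10 counts or more in both pairs was beyond 2-fold in both directions. *Arntl2*, under that minimum on HFD, had 6 and 0 counts there (interval from −1.14 down) and was at 2.02 on chow (14 and 58 counts). Over all genes, 12.9% were higher and 10.9% lower beyond 2-fold in SAT HFD, and 19.1% and 11.5% in SAT chow. The share of all genes called in opposite directions is not given here, so the pattern cannot be called particular to *Npas2*.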

How the results depend on the processing

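Of the 10 clock genes, the number called by edgeR was 0 in each of the 6 fits. For any difference among conditions it rose to 1 with DESeq2's test and to 1 with every gene of at least 1 count, and ran from 0 to 3 over fits with a library left out. For VAT over SAT chow it rose to 1 and 1 under the same choices and ran from 0 to 4, for muscle over SAT chow from 0 to 2, for SAT HFD over SAT chow from 0 to 1, and for muscle over VAT and for genotype it stayed 0, also with no replicate block. Over all genes, the number called moved by over 1.5 times: 529 to 4025 against 1345 for any condition, 108 to 3510 against 849 for VAT over SAT chow, 39 to 1771 against 215 for muscle over SAT chow, 39 to 1264 against 343 for muscle over VAT, 0 to 441 against 0 for diet and 0 to 42 against 1 for genotype.

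Within pairs, the number of clock genes beyond 2-fold fell from 2 to 1 in SAT HFD when a mean of at least 50 counts was asked for, since *Npas2* was then not tested. *Per3* in SAT chow turned to −0.13 with the length trend removed, and *Per1* in muscle to 0.06 with library totals, which shift all ratios by 0.225 in SAT chow and 0.161 in muscle (DESeq2's factors by 0.106 in SAT chow). Of 198 single values under these alternatives, 180 stayed inside the counting interval, 16 left it in the same direction and 2 reversed. However, 38 of the 180 came from the minimum of 50 counts, which only leaves genes out and cannot move a ratio. The arm contrast moved without *Clock* and *Cry1* to −0.95 in SAT HFD, 1.01 in SAT chow and 0.43 in muscle, without *Per1* to 1.13 in SAT chow, and with the length trend removed to 0.29 in SAT chow. From summed CPM it was 0.47 in SAT HFD, −1.63 in SAT chow, −0.26 in VAT and −0.078 in muscle.

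Genotype values of single genes changed sign when a pair was left out, over ranges of −0.091 to 0.59 for *Clock*, −0.58 to 1.0 for *Npas2*, −0.019 to 0.36 for *Cry1*, −0.33 to 0.14 for *Per2*, −0.041 to 0.30 for *Per3*, −0.47 to 0.081 for *Nr1d1* and −0.19 to 0.48 for *Nr1d2*, and *Per2* was at 0.037 with library totals. Apart from the choices whose construction shows it, the cause was not tested. *Npas2*, *Dbp* and *Per3*, at 5 to 285 counts, limit the precision.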
